A study of Mus musculus with 24 samples.

Results

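HOX transcription factors, their MEIS and PBX cofactors and 2 PRDM-family regulators of haematopoietic stem cells were followed through 3 populations of mouse bone marrow with and without Phf6. The 9 genes are Hoxa5, Hoxa7, Hoxa9, Hoxa10, Hoxb4, Meis1, Pbx3, Prdm16 and Mecom, chosen by name as regulators of stem cell self-renewal and found among the 27179 genes of the counts table through their Entrez identifiers. The rule itself uses gene names and no measured value, but the members were chosen with earlier results of these data known. All 9 passed the filter on low counts in every comparison. Phf6 was deleted in 4 mice and intact in 4 control mice, 1 of each kind in each of 4 litters. Each mouse gave 1 library of haematopoietic stem cells (HSC), 1 of multipotent progenitors (MPP) and 1 of the progenitors called HPC-1, which makes 24 libraries and 6 groups of 4. The strain label reads Phf6lox/Y;Tie2-creTg/+ for deleted and control mice alike, which leaves unsaid whether controls carried the transgene. Tie2-cre is driven by a promoter active in endothelial and haematopoietic cells, so the deletion is not specific to the sorted cells, and the allele is carried by males. Ages of the mice were not used here. Phf6 encodes a nuclear protein with plant homeodomain fingers, and loss of its human counterpart is known from T-cell leukaemia.

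The cells were depleted of lineage-positive marrow and sorted by flow cytometry for cKIT and SCA1 with CD150 and CD48. The RNA for CD150 fitted the labels of HSC and MPP, but not every other marker did. Levels are given as CPM, the count of a gene relative to the total of its library. Slamf1, which encodes CD150, averaged 1.26 CPM in deleted and 1.90 CPM in control MPP, against 36.3 CPM in deleted and 67.4 CPM in control HSC. Cd48 averaged 213 CPM in deleted and 184 CPM in control HPC-1. Ly6a, which encodes SCA1, averaged 51.9 CPM in deleted and 43.0 CPM in control HPC-1, against 174 and 162 CPM in HSC. Procr and Hlf, looked at as further markers, were higher in MPP than in HSC of both genotypes. HSC and MPP libraries were made with a SMART-Seq kit and HPC-1 libraries with a TruSeq kit, so a difference in level between HPC-1 and the other populations cannot be told apart from the kit and is not tested. Libraries held 9658167 to 27786830 counts. Phf6 itself was lower in deleted mice by 1.95 on the log2 scale in HSC (SE 0.22, edgeR adjusted p = 0.0211). The difference was -1.82 ± 0.18 in MPP (adjusted p = 0.00432) and -2.08 ± 0.16 in HPC-1 (adjusted p = 3.29e-05). In its make-up 1 library, from MPP of deleted mouse 3, was unlike the rest, with 9.34% of its counts in its 10 most abundant genes. Several results of the members that it moved are also given without it. In bulk libraries of sorted cells, fewer cells that express a gene and less RNA per cell cannot be told apart.

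HOX proteins are homeodomain transcription factors encoded in 4 clusters, and those of the A cluster and part of the B cluster are active in haematopoietic stem cells and switched off as blood cells mature. They bind DNA together with cofactors of the TALE homeodomain class, the PBX proteins and the MEIS proteins, and the combination of Hoxa9 with Meis1 and Pbx3 is a known driver of leukaemia. Prdm16 and Mecom encode related zinc finger proteins with a PR domain that are needed to keep stem cells in number.

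The starts of these genes are shown where they bear on the results: Hoxa9 is the HOX member that passed the test between MPP and HSC of controls, and Mecom had the windows with a TALE motif. RefSeq's GRCm38.p6 table held a start for 8 of the 9 genes, all but Pbx3, and 10 windows of 250 bases upstream of a start were searched on both strands. The MEIS core TGACAG lay in 1 of the 10 windows, against 15.9% of the 32851 windows of all genes. The PBX-HOX composite TGATNNAT lay in 1 of the 10, against 7.68% of all windows. Both were in Mecom, which has 2 starts on the minus strand of chromosome 3, the upstream one at chr3:30509760-30510009 and the downstream one at chr3:30013205-30013454. Capitals mark the TGATNNAT match in the upstream window, which also reads as the posterior HOX core TTTAT on the other strand, and the TGACAG match in the downstream window, which lies on the opposite strand. TTTAT lay in 5 of the 10 windows, both of Mecom, both of Hoxa10 and that of Hoxa7, against 37.3% of all windows. The bases that follow the Hoxa7 window were not found in a GENCODE transcript of Hoxa7, unlike those of the other windows. The window of Hoxa9, at chr6:52227371-52227620 on the minus strand, held none of the 3 motifs, which says only that these letters are not in it. A match is a description of the letters and not a binding site.
Mecom upstream start: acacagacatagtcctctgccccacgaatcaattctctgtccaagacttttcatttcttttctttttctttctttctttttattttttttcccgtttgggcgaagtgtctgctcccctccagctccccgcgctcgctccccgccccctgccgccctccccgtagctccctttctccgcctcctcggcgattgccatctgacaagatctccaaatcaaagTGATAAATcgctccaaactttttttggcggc
Mecom downstream start: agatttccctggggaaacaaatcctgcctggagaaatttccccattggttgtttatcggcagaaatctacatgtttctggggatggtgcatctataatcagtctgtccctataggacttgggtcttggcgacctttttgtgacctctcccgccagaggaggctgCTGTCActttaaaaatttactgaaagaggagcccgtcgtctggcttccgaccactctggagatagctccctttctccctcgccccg
Hoxa9: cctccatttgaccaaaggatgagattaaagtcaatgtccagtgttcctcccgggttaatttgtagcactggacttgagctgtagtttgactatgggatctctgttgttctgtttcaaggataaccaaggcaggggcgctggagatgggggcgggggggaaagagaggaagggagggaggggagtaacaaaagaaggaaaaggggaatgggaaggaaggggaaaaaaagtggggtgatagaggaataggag

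Meis1 was by far the most abundant of the 9 genes once levels were set per kilobase of exon. In HSC it averaged 155 CPM per kb in deleted and 172 CPM per kb in control mice, and in MPP 143 CPM per kb in deleted and 150 CPM per kb in control mice. In HPC-1 it averaged 41.4 CPM per kb in deleted and 48.2 CPM per kb in control mice. Its libraries lay above those of every other member in all 6 groups. Pbx3, Mecom, Hoxa9 and Hoxa7 followed in HSC of deleted mice with means of 19.1, 18.5, 16.7 and 15.8 CPM per kb, and the libraries of each neighbouring pair overlapped. In control HSC the order below Meis1 was Mecom, Hoxa9, Hoxa7 and Pbx3, at 19.8, 15.3, 13.7 and 12.1 CPM per kb, again with overlapping neighbours. In MPP Hoxa9 came next after Meis1, at 31.5 CPM per kb in deleted and 27.9 CPM per kb in control mice. Prdm16 and Hoxb4 were the lowest members in HSC and MPP of both genotypes. Prdm16 averaged 2.70 CPM per kb in deleted and 3.76 CPM per kb in control HSC, and Hoxb4, long used to expand stem cells in culture, 0.884 CPM per kb in deleted and 1.23 CPM per kb in control HSC. Counts are per gene, so isoforms of Mecom and Prdm16 with and without the PR domain are not separated.

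**Figure D1:**
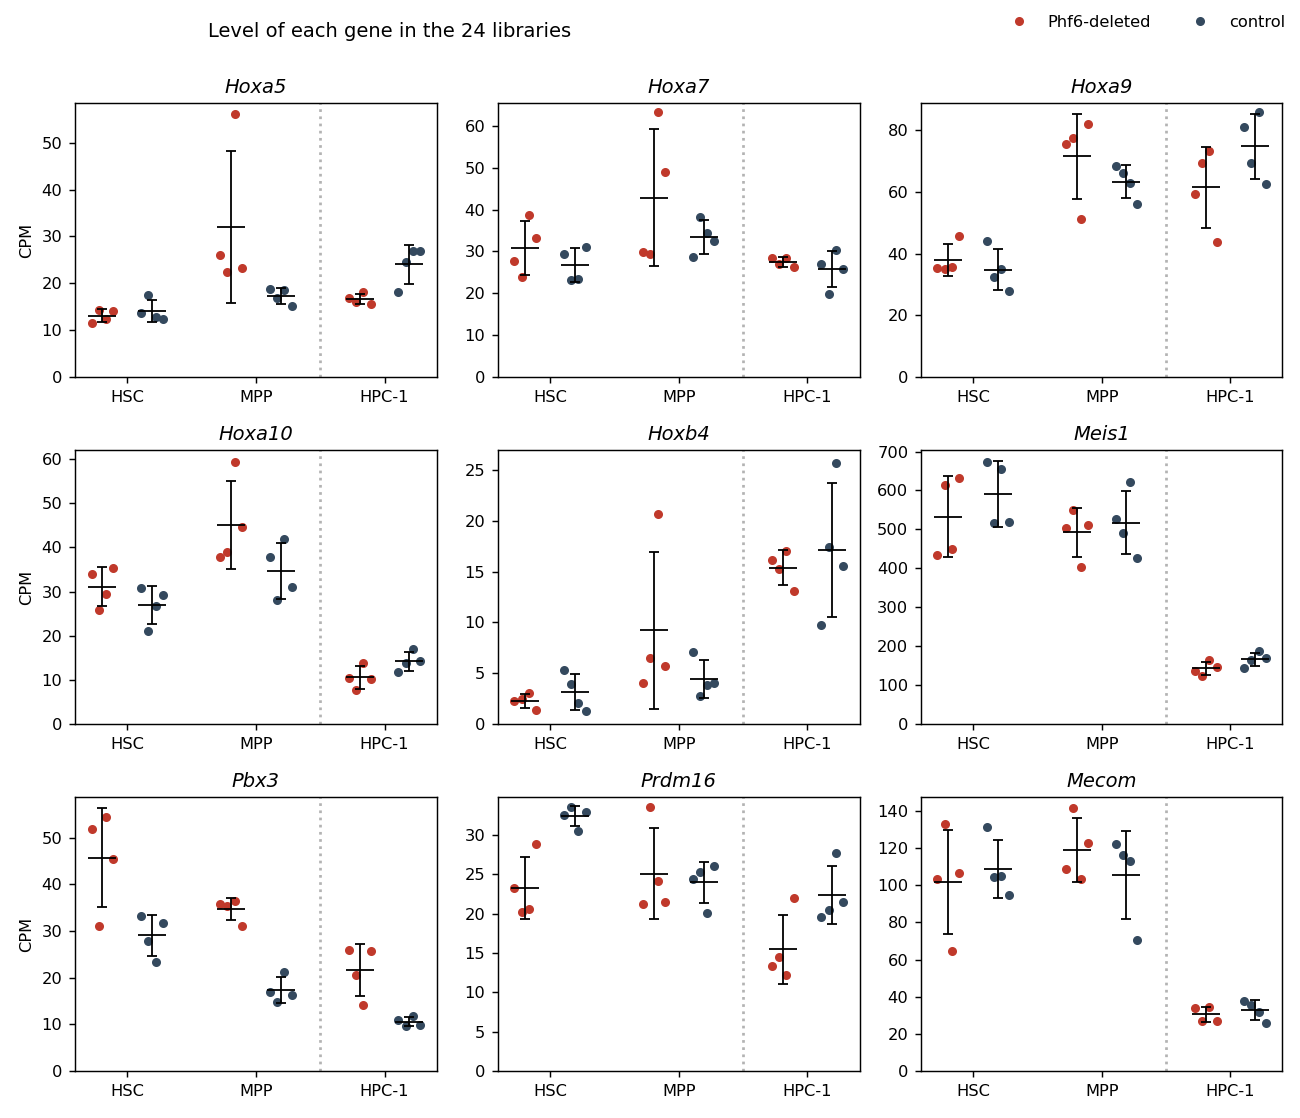
CPM of each gene (vertical axes, from 0) in the 4 Phf6-deleted (red) and 4 control (dark) libraries of HSC, MPP and HPC-1; black bars are the mean and SD of 4 mice, and the dotted line separates libraries of the TruSeq kit. Pbx3 is the gene whose red points lie above the dark ones in MPP and HPC-1, and Hoxa5, Hoxa7, Hoxa10 and Hoxb4 have 1 high library in deleted MPP.

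Deleted and control mice were compared within each population to ask how the regulators stand without Phf6, and Pbx3, the PBX cofactor of HOX proteins, was the only member higher in the deleted mouse of all 4 litters in each population. Pbx3 had 52.0, 31.0, 54.6 and 45.5 CPM in HSC of deleted mice of litters 1 to 4, against 33.2, 27.9, 23.3 and 31.8 CPM in control HSC. It had 35.8, 35.3, 36.5 and 31.2 CPM in MPP of deleted mice, against 17.0, 14.8, 21.2 and 16.3 CPM in control MPP. It had 26.0, 20.5, 14.2 and 25.8 CPM in HPC-1 of deleted mice, against 10.95, 9.58, 11.8 and 9.90 CPM in control HPC-1. Every deleted library lay above every control library in MPP and in HPC-1, and in HSC the groups overlapped through the deleted mouse of litter 2. Within litters Pbx3 was higher in the deleted mouse in 12 of 12 pairs, which come from 4 litters and are not independent of each other.

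Taken alone, the populations did not pass the threshold of 0.05 for Pbx3 in edgeR's quasi-likelihood test. The log2 fold change was 0.66 ± 0.23 in HSC (SE, adjusted p = 0.998, unadjusted p = 0.0151). It was 1.00 ± 0.19 in MPP (adjusted p = 0.171, unadjusted p = 0.00031), at rank 25 of 13806 genes by p. It was 1.04 ± 0.21 in HPC-1 (adjusted p = 0.114, unadjusted p = 0.000189), at rank 23 of 13907 genes by p. DESeq2 called Pbx3 in MPP (adjusted p = 0.000267) and in HPC-1 (adjusted p = 0.00185), and edgeR with the litter as a replicate block called it in HPC-1 (1.01, adjusted p = 0.0433) and not in MPP (1.01, adjusted p = 0.332). Without the HPC-1 library of deleted mouse 3, the lowest of its group, the log2 fold change in HPC-1 was 1.20 and called (adjusted p = 0.0285). In the other 7 fits that left out 1 HPC-1 library it lay between 0.94 and 1.09 and was not called, with an adjusted p from 0.161 to 0.549.

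After these values were seen, the 3 populations of each mouse were averaged into 1 value and the 8 mice compared with limma. Pbx3 averaged 5.002 ± 0.16 log2 CPM in deleted mice and 4.12 ± 0.09 log2 CPM in control mice (SD, n = 4 each). The deleted mice stood at 5.19, 4.82, 4.94 and 5.06 log2 CPM, and the control mice at 4.21, 4.00, 4.18 and 4.12 log2 CPM, without overlap. Pbx3 rose by 0.88 ± 0.14 on the log2 scale in this comparison (limma adjusted p = 0.0322), the only one of the 9 members called, and it was at rank 12 of 12843 genes, of which 13, or 0.101%, were called. The call is a narrow one. It was kept in 1 of 8 fits that each left out 1 mouse, the one without deleted mouse 3 (0.90, adjusted p = 0.0221), and in the other 7 the adjusted p ran up to 0.156 with the fold change between 0.82 and 0.94. With the litter as a block the adjusted p was 0.0742.

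**Figure D2:**
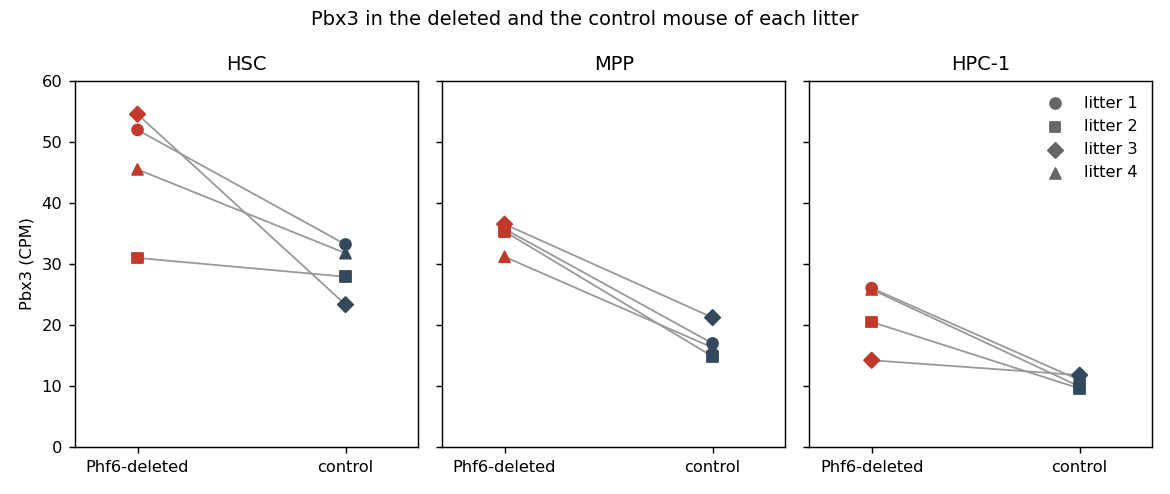
Pbx3 level (CPM, vertical axis from 0) in the Phf6-deleted mouse (red, left) and the control mouse (dark, right) of each litter in HSC, MPP and HPC-1; marker shapes and joining lines give the litter. All 12 lines run downwards from the deleted to the control mouse.

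Markers of other cells were looked at beside Pbx3. Of 8 neutrophil genes 8 were higher in deleted mice in each population, with median log2 fold changes of 0.47 for HSC, 1.34 for MPP and 0.49 for HPC-1 and none called. Of 4 monocyte genes 4 were higher, with medians of 0.73, 0.80 and 0.90 in the same populations and none called. The summed neutrophil genes ran from 1174 to 9057 CPM in deleted and from 520 to 6558 CPM in control HSC. In MPP they ran from 1232 to 11990 CPM in deleted and from 168 to 2468 CPM in control mice, and in HPC-1 from 282 to 2377 CPM in deleted and from 339 to 1176 CPM in control mice. The monocyte sums ran from 38.8 to 207 CPM in deleted and from 13.8 to 150 CPM in control HSC. They ran from 25.5 to 137 CPM in deleted and from 15.9 to 56.4 CPM in control MPP, and from 192 to 721 CPM in deleted and from 128 to 348 CPM in control HPC-1. None of these genes was at 0 in every library. Of the 12 litter pairs, the neutrophil sum was lower in the deleted mouse in 4 and the monocyte sum in 2. Among deleted HPC-1 libraries, that of litter 3 had the lowest neutrophil and monocyte sums and the lowest Pbx3, at 14.2 CPM. Among deleted HSC libraries, that of litter 3 had the lowest sums and the highest Pbx3, at 54.6 CPM. Among deleted MPP libraries, that of litter 4 had the highest sums and the lowest Pbx3, at 31.2 CPM. The part of these markers in the differences of Pbx3 and of the other members was not tested.

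Meis1, the MEIS cofactor that stabilises HOX proteins on DNA, had overlapping groups in all 3 populations. Meis1 had 435, 614, 450 and 631 CPM in HSC of deleted mice, against 673, 517, 655 and 520 CPM in control HSC. It had 503, 551, 402 and 511 CPM in MPP of deleted mice, against 527, 491, 622 and 427 CPM in control MPP. The groups overlapped and the higher mouse changed from litter to litter. In HPC-1 it had 137, 123, 165 and 146 CPM in deleted mice, against 145, 163, 186 and 169 CPM in controls, lower in the deleted mouse of all 4 litters with overlapping groups. Its log2 fold changes were -0.15 ± 0.17 for HSC, -0.08 ± 0.18 for MPP and -0.22 ± 0.10 for HPC-1 (edgeR adjusted p = 0.998, 0.895 and 0.988).

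Across the 9 members, edgeR called 0 in any population in deleted against control mice. In HSC, 1 of 13693 genes or 0.0073% was called, and 2 of 9 members had an unadjusted p under 0.05, as had 528 of the 13693 genes. There 4 of 9 were higher in deleted mice and their median log2 fold change was -0.09, against 0.01 over all genes. In MPP, 4 of 13806 genes or 0.029% were called, and 2 of 9 members had an unadjusted p under 0.05, as had 1117 of the 13806 genes. There 8 of 9 were higher in deleted mice and the median was 0.35, against 0.02 over all genes. In HPC-1, 9 of 13907 genes or 0.0647% were called, and 3 of 9 members had an unadjusted p under 0.05, as had 694 of the 13907 genes. There 2 of 9 were higher in deleted mice and the median was -0.22, against 0.00 over all genes. DESeq2 called Pbx3 in MPP and HPC-1 and no member in HSC, where it called 96, 68 and 14 genes in all. Groups that did not overlap were found for 1 of 9 members in HSC, against 3.16% of all genes, for 2 of 9 in MPP, against 5.74%, and for 1 of 9 in HPC-1, against 3.66%. Without the MPP library of deleted mouse 3 the median of the members in MPP was 0.23, with 9 of 9 above 0.

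**Figure D3:**
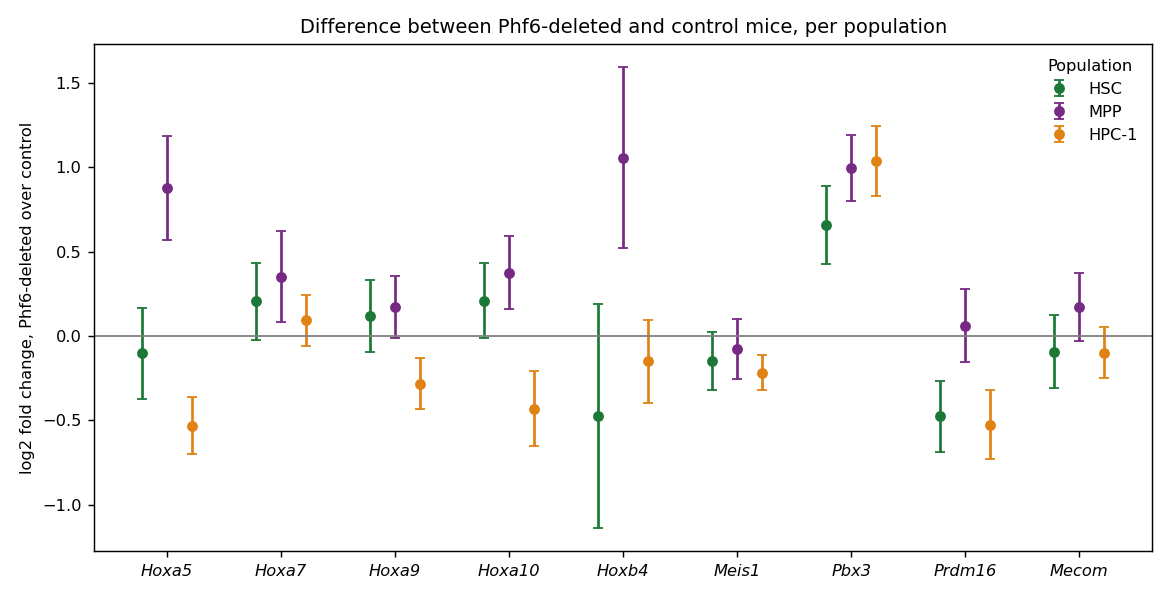
Log2 fold change (vertical axis) of deleted over control mice for each gene in HSC (green), MPP (purple) and HPC-1 (orange), with SE from edgeR; each point rests on 4 deleted and 4 control libraries. Pbx3 is above 0 in all 3 populations, while Hoxa5 is at 0.88 in MPP and -0.53 in HPC-1.

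Among the A-cluster genes, Hoxa5, a HOX gene with roles in early progenitors, was higher in MPP and lower in HPC-1 of deleted mice, and neither difference passed the test. It had 26.1, 22.3, 56.2 and 23.3 CPM in MPP of deleted mice, against 18.8, 16.8, 18.6 and 15.1 CPM in control MPP. It had 16.9, 16.1, 18.1 and 15.5 CPM in HPC-1 of deleted mice, against 18.1, 24.5, 26.8 and 26.9 CPM in control HPC-1. The deleted MPP libraries were all above the controls, with that of mouse 3 far above the rest, and the deleted HPC-1 library was the lower one in all 4 litters, overlapping the control of litter 1. In HSC the groups overlapped, at 11.6, 14.3, 12.3 and 14.1 CPM in deleted and 13.6, 17.5, 12.8 and 12.3 CPM in control mice. On the log2 scale the differences were -0.10 ± 0.27 for HSC, 0.88 ± 0.31 for MPP and -0.53 ± 0.17 for HPC-1 (edgeR adjusted p = 0.998, 0.592 and 0.627). Without the library of mouse 3 the value in MPP was 0.46 (adjusted p = 0.586).

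Hoxa9, the A-cluster gene with the highest level per kilobase and a leukaemia driver when overexpressed, had overlapping groups in all 3 populations as well. It had 35.2, 34.95, 35.6 and 45.8 CPM in HSC of deleted mice, against 44.1, 32.5, 34.9 and 27.95 CPM in control HSC. It had 75.7, 77.5, 51.4 and 82.2 CPM in MPP of deleted mice, against 68.5, 66.0, 62.9 and 56.1 CPM in control MPP. The groups overlapped in both, with deleted mouse 3 the lowest MPP library. HPC-1 libraries had 59.5, 69.5, 73.4 and 43.9 CPM in deleted mice, against 81.3, 69.6, 85.9 and 62.7 CPM in controls, lower in the deleted mouse of each litter with a difference close to 0 in litter 2. The log2 fold changes were 0.12 ± 0.21 for HSC, 0.17 ± 0.19 for MPP and -0.28 ± 0.15 for HPC-1 (edgeR adjusted p = 0.998, 0.757 and 0.999). Reads of Hoxa9 can include those of Mir196b, which lies in its exons on the same strand.

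Hoxa10, a neighbour of Hoxa9 that is active in stem and progenitor cells, had the same signs. It had 34.1, 25.8, 29.4 and 35.3 CPM in HSC of deleted mice, against 30.7, 21.1, 26.7 and 29.2 CPM in control HSC. It had 37.7, 38.9, 59.4 and 44.6 CPM in MPP of deleted mice, against 37.7, 28.1, 42.0 and 31.0 CPM in control MPP. Deleted mice were the higher of the pair in 4 of 4 litters in HSC and 3 of 4 in MPP, and the groups overlapped in both. In HPC-1 it had 10.4, 7.68, 13.8 and 10.2 CPM in deleted mice, against 11.8, 13.9, 16.9 and 14.2 CPM in controls, lower in 4 of 4 litters. Its log2 fold changes were 0.21 ± 0.22 for HSC, 0.37 ± 0.22 for MPP and -0.43 ± 0.22 for HPC-1 (edgeR adjusted p = 0.998, 0.639 and 0.995). Without the library of deleted mouse 3 the value in MPP was 0.21 (edgeR adjusted p = 0.859).

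Hoxa7, which lies between Hoxa6 and Hoxa9 in the cluster, had 23.98 to 38.7 CPM in deleted and 23.3 to 31.1 CPM in control HSC. It had 29.9, 29.3, 63.2 and 49.0 CPM in MPP of deleted mice, against 28.6, 38.3, 34.3 and 32.6 CPM in control MPP. The groups overlapped, and the highest MPP libraries were those of deleted mice 3 and 4. HPC-1 libraries had 26.2 to 28.4 CPM in deleted and 19.9 to 30.4 CPM in control mice. Its log2 fold changes were 0.20 ± 0.23 for HSC, 0.35 ± 0.27 for MPP and 0.09 ± 0.15 for HPC-1 (edgeR adjusted p = 0.998, 0.670 and 0.999). Without the library of deleted mouse 3 the value in MPP was 0.11 (edgeR adjusted p = 0.950). Exons of the antisense gene Hoxaas3 overlap those of Hoxa7, and the SMART-Seq libraries do not mark the strand, so reads of this pair cannot be told apart in those populations.

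Hoxb4, the B-cluster member, was near the lower limit of these data in HSC. It had 2.24, 2.44, 3.07 and 1.33 CPM in HSC of deleted mice, against 5.27, 3.96, 2.06 and 1.31 CPM in control HSC. It had 4.02, 6.51, 20.7 and 5.69 CPM in MPP of deleted mice, against 7.05, 2.75, 3.83 and 3.99 CPM in control MPP. The groups overlapped in both, and the MPP mean of deleted mice rested on mouse 3. In HPC-1 it had 16.2, 15.3, 17.1 and 13.1 CPM in deleted mice, against 9.79, 17.4, 25.7 and 15.5 CPM in controls, with overlap. On the log2 scale the differences were -0.47 ± 0.66 for HSC, 1.06 ± 0.54 for MPP and -0.15 ± 0.25 for HPC-1 (edgeR adjusted p = 0.998, 0.621 and 0.999). Without mouse 3 the value in MPP was 0.29 (adjusted p = 0.921).

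Prdm16, a PR-domain zinc finger protein required for stem cell maintenance, was lower in HSC and HPC-1 of deleted mice without passing the test. It had 23.3, 20.3, 20.6 and 28.9 CPM in HSC of deleted mice, against 32.6, 33.5, 30.6 and 32.9 CPM in control HSC. It had 13.3, 14.5, 12.2 and 21.9 CPM in HPC-1 of deleted mice, against 19.6, 20.5, 27.7 and 21.6 CPM in control HPC-1. Every deleted HSC library was below every control, and in HPC-1 the library of deleted mouse 4 lay within the control range. In MPP it had 21.2, 33.6, 24.1 and 21.5 CPM in deleted and 24.5, 25.3, 20.1 and 26.0 CPM in control mice, with overlap. The log2 fold changes were -0.48 ± 0.21 for HSC, 0.06 ± 0.22 for MPP and -0.53 ± 0.21 for HPC-1 (edgeR adjusted p = 0.998, 0.935 and 0.842). Averaged over the populations of a mouse the difference was -0.33 ± 0.14 (limma adjusted p = 0.539).

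Mecom, which encodes the EVI1 and MDS1-EVI1 proteins of stem cells, did not separate the genotypes. It had 103, 133, 64.5 and 106 CPM in HSC of deleted mice, against 131, 104, 105 and 94.5 CPM in control HSC. It had 109, 142, 103 and 123 CPM in MPP of deleted mice, against 122, 116, 113 and 70.6 CPM in control MPP. The groups overlapped in both populations, with deleted mouse 3 the lowest in HSC and control mouse 4 the lowest in MPP. HPC-1 libraries had 27.0 to 34.4 CPM in deleted and 25.6 to 37.9 CPM in control mice. Its log2 fold changes were -0.09 ± 0.22 for HSC, 0.17 ± 0.20 for MPP and -0.10 ± 0.15 for HPC-1 (edgeR adjusted p = 0.998, 0.781 and 0.999). The exons of Meis1, Prdm16 and Mecom each overlap a non-coding gene on the other strand, with the same limit as for Hoxa7.

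A difference in the deletion effect from one population to another was tested directly, and no member and no gene was called. For MPP minus HSC edgeR called 0 of 14561 genes (0.0%), with 417 at an unadjusted p under 0.05, and DESeq2 called 2. Hoxa5 had the lowest p of the members, with a difference of 0.98 ± 0.39 (unadjusted p = 0.0217, adjusted p = 1.00), and 0.53 without mouse 3. For HPC-1 minus the mean of HSC and MPP edgeR called 0 of 15316 genes (0.0%), with 446 at an unadjusted p under 0.05, and DESeq2 called 11. There Hoxa5 was at -0.92 ± 0.30 (unadjusted p = 0.00551) and Hoxa10 at -0.72 ± 0.26 (unadjusted p = 0.00953), each with an adjusted p of 1.00. For Pbx3 the differences were 0.35 ± 0.29 for MPP minus HSC and 0.21 ± 0.26 for HPC-1 minus the others.

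The step from HSC to MPP was the second comparison, and in control mice Hoxa9 rose and Pbx3 fell. Hoxa9 averaged 63.4 ± 5.35 CPM in MPP and 34.9 ± 6.79 CPM in HSC of control mice (SD, n = 4 each), higher in 4 of 4 mice and without overlap. Its log2 fold change was 0.85 ± 0.16 (edgeR adjusted p = 0.00538), and it was called in all 8 fits that left out 1 library. Pbx3 averaged 17.3 ± 2.74 CPM in MPP and 29.1 ± 4.42 CPM in HSC, lower in 4 of 4 mice and without overlap, with a log2 fold change of -0.75 ± 0.19 (adjusted p = 0.0243). That call was lost in 6 of 8 fits that left out 1 library, with values from -0.85 to -0.67 and an adjusted p up to 0.0858. So 2 of 9 members were called, 1 in each direction, where 8.84% of 13636 genes were called, 4.06% higher and 4.78% lower in MPP. Prdm16 was lower in MPP in 4 of 4 mice, without overlap, at -0.44 ± 0.16 (adjusted p = 0.118). The share of all genes without overlap was not counted for this comparison. The remaining 6 members had log2 fold changes from -0.20 for Meis1 to 0.47 for Hoxb4 and adjusted p of 0.281 or more. Of 10 sort genes 7 were called in this comparison, and 8 were higher in MPP. Slamf1 was lower in MPP, as was Ctnnal1, at 13.6 CPM against 50.6 CPM in HSC. Procr and Hlf of the same list went the other way, at 163 and 642 CPM in control MPP against 92.1 and 287 CPM in control HSC. Megakaryocyte genes were lower in MPP, with 3 of 4 called and a median of -3.17. Of 8 neutrophil and 4 monocyte genes 0 were higher in MPP, with medians of -0.95 and -0.84 and none called. The part of these markers in the fall of Pbx3 was not tested. The fits above did not pair MPP and HSC of a mouse. With the mouse as a block edgeR called 2109 genes, with an adjusted p of 0.00215 for Hoxa9, 0.0279 for Pbx3 and 0.0689 for Prdm16.

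In deleted mice the same step was measured with the MPP and HSC libraries already used above, so the values are not independent of those in MPP and HSC. Hoxa9 averaged 71.7 ± 13.8 CPM in MPP and 37.9 ± 5.29 CPM in HSC of deleted mice, higher in 4 of 4 mice and without overlap, with a log2 fold change of 0.90 ± 0.23 (edgeR adjusted p = 0.0821, DESeq2 adjusted p = 0.0059). Without the MPP library of mouse 3 it was 1.03 and called (edgeR adjusted p = 0.0322), and in the other 7 fits that left out 1 library it was not called, with an adjusted p from 0.0791 to 0.206. Pbx3 averaged 34.7 ± 2.40 CPM in MPP and 45.8 ± 10.6 CPM in HSC, lower in MPP in 3 of 4 mice, at -0.42 ± 0.24 (adjusted p = 0.458). Hoxa5 was at 1.27 ± 0.35 (adjusted p = 0.111) and Hoxb4 at 2.00 ± 0.62 (adjusted p = 0.150), each without overlap, and DESeq2 called both (adjusted p = 0.0165 and 0.0302). Hoxa10 was also without overlap, at 0.52 ± 0.24 (edgeR adjusted p = 0.362), and the share of all genes without overlap was not counted here either. Without the MPP library of deleted mouse 3, edgeR gave 0.85 for Hoxa5 (adjusted p = 0.154) and 1.23 for Hoxb4 (adjusted p = 0.366). In this comparison edgeR called 0 of 9 members and 1.41% of 13887 genes. An unadjusted p under 0.05 was found for 3 of 9 members and for 1993 of the 13887 genes. DESeq2 called 3 members, where it called 843 of the 13887 genes.

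**Figure D4:**
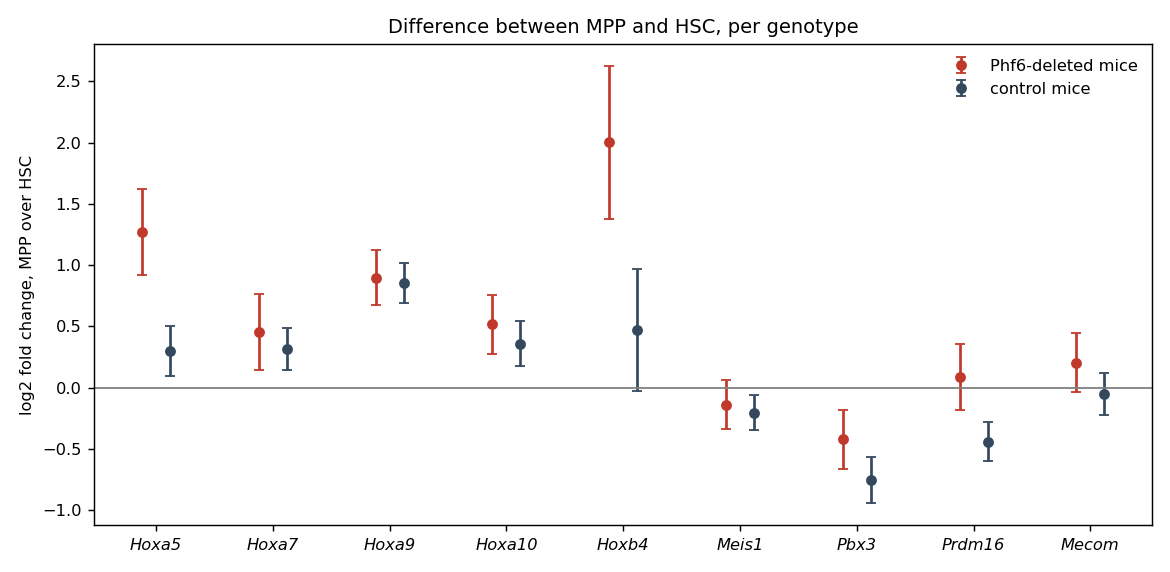
Log2 fold change (vertical axis) of MPP over HSC for each gene in deleted (red) and control (dark) mice, with SE from edgeR; each point rests on 4 MPP and 4 HSC libraries. Hoxa9 is near 0.9 in both genotypes, and Hoxa5 and Hoxb4 are further apart.

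The patterns most like those of Hoxa9 and Pbx3 were sought over the 16 HSC and MPP libraries by the root mean square difference of centred log2 CPM, among 12975 genes. For Hoxa9 they were Lsp1 (0.20), Ppp3ca (0.21) and Znrf1 (0.22), where the median gene was at 0.66 and Hoxa9 itself varied by 0.49 about its mean. For Pbx3 they were Cd302 (0.29), Srgap3 (0.30) and Chchd7 (0.34), where the median gene was at 0.72 and Pbx3 varied by 0.55. Cd302, which encodes a C-type lectin receptor, averaged 25.1 ± 6.95 CPM in deleted and 14.1 ± 3.08 CPM in control HSC. It averaged 16.8 ± 3.88 CPM in deleted and 9.15 ± 2.41 CPM in control MPP (SD, n = 4 each).

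The neighbours of the members in the HOX clusters set their levels in context. Of the A cluster, Hoxa5, Hoxa7, Hoxa9 and Hoxa10 carried most of the signal in HSC and MPP, Hoxa2, Hoxa3, Hoxa4 and Hoxa6 were below 5 CPM per kb there, and Hoxa11 and Hoxa13 were near 0. Of 11 A-cluster genes 8 passed the filter, and none was called in deleted against control mice in any population, with median log2 fold changes of -0.09 for HSC, 0.36 for MPP and -0.17 for HPC-1. Of 10 B-cluster genes, 5 passed the filter in HSC and MPP and 4 in HPC-1, and none was called. Hoxb2 was the B-cluster gene that fell in MPP against HSC of control mice, at 10.96 ± 1.07 CPM in MPP and 18.9 ± 3.84 CPM in HSC (log2 fold change -0.79 ± 0.22, edgeR adjusted p = 0.0382). None of the 9 genes of the C cluster or the 9 of the D cluster passed the filter in any of the 3 deletion comparisons.

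**Figure D5:**
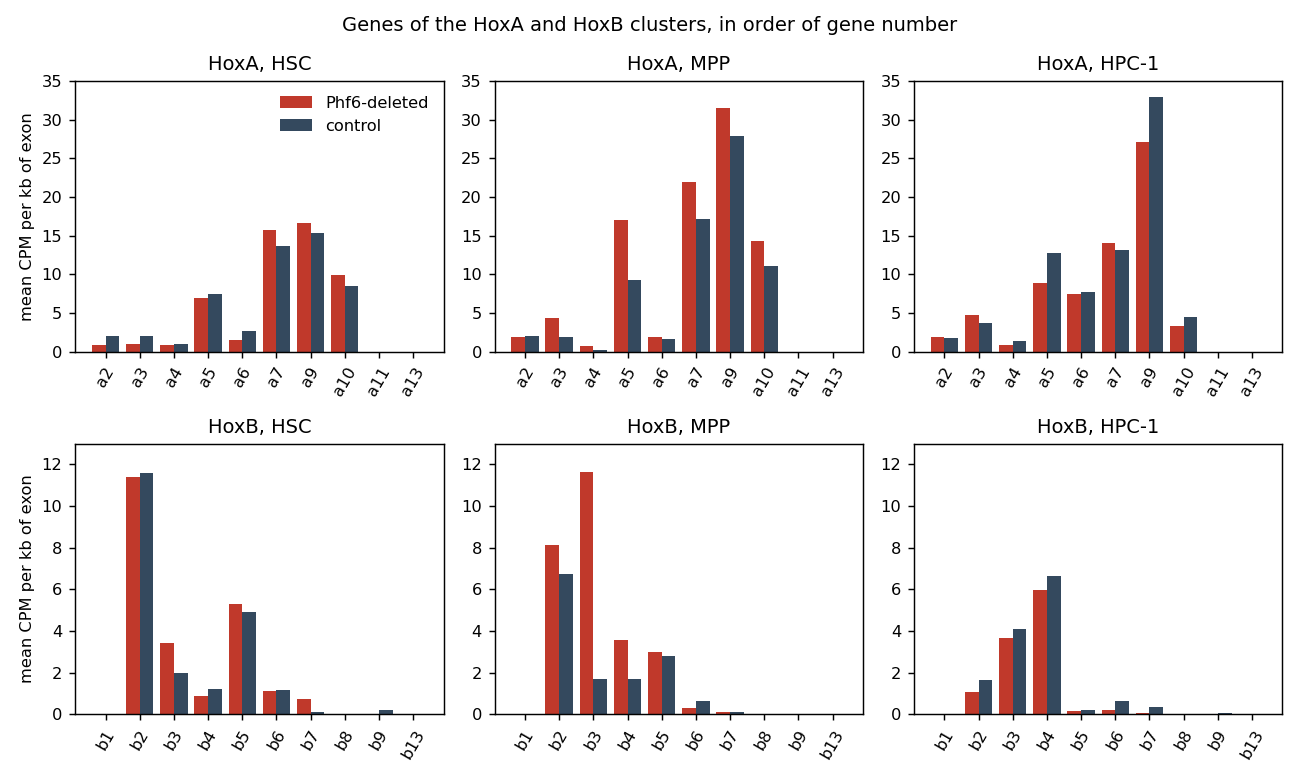
Mean CPM per kb of exon (bars, from 0) of 10 of the 11 A-cluster genes (top) and the B-cluster genes (bottom) in deleted (red) and control (dark) mice, in HSC, MPP and HPC-1; each bar is a mean of 4 libraries and HPC-1 was made with another kit. Hoxa9 is the tallest A-cluster gene in each population, and the bar of Hoxb3 in deleted MPP rests on 1 library.

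No other TALE gene was called in deleted mice. Of 12 genes in the TALE list 10 passed the filter, and 0 were called with edgeR in any population. At most 3 of the 10 had an unadjusted p under 0.05 in one, in MPP, where 1117 of 13806 genes had. In MPP against HSC of control mice 2 of the 10 were called higher and 2 lower, Pbx3 among the lower. Of all genes 4.06% were called higher and 4.78% lower. Tgif1, a TALE repressor, averaged 124 ± 17.0 CPM in MPP and 52.3 ± 3.8 CPM in HSC (log2 fold change 1.24 ± 0.13, edgeR adjusted p = 9.5e-05), and Pbxip1, which binds PBX proteins, 109 ± 8.28 CPM in MPP and 71.5 ± 8.80 CPM in HSC (0.60 ± 0.13, adjusted p = 0.0112). In deleted mice Tgif1 rose in MPP against HSC as well, at 156 ± 64.0 CPM in MPP and 47.5 ± 11.8 CPM in HSC (1.70 ± 0.30, adjusted p = 0.0247). That MPP mean was raised by mouse 3, with libraries of 121, 128, 252 and 123 CPM in litters 1 to 4. The HSC libraries had 35.6, 56.9, 39.1 and 58.5 CPM. A value for Tgif1 without the MPP library of mouse 3 is not given here.

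Genes that control HOX expression and genes reported as targets of these factors were counted as lists. Of 26 regulators, among them the KMT2A and Polycomb complexes, 23 passed the filter and none was called in deleted mice in any population. In MPP against HSC of control mice Mllt3, part of the super elongation complex, fell by 0.70 on the log2 scale (SE 0.16, edgeR adjusted p = 0.0152), and Ezh2, the Polycomb methyltransferase, fell by 0.49 (SE 0.13, adjusted p = 0.0321). These 2 of 23 were the regulators called, where 8.84% of all genes were called, so the list does not stand out. Of 18 reported targets 17 passed the filter and none was called in deleted mice in HSC, MPP or HPC-1. In MPP against HSC of control mice 6 of the 17 were called higher and 4 lower, where 4.06% of all genes were called higher and 4.78% lower. The list shares Flt3, Cd34 and Hlf with the sort genes and was chosen with earlier results known. Its share is therefore not read as a result about targets. Flt3, a cytokine receptor of multipotent progenitors, averaged 446 ± 14.5 CPM in MPP and 43.4 ± 14.4 CPM in HSC (3.36 ± 0.21, adjusted p = 1.43e-06), and Cd34 and Sox4 rose by 1.75 and 1.10 on the log2 scale. Bcl2 and Gata2, a survival factor and a stem cell transcription factor, fell by 1.03 and 0.93. Of 15 PRDM-family genes 10 passed the filter, and none was called in deleted mice in any population.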

How the data were processed

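Poly(A) RNA of sorted HSC, MPP and HPC-1 was sequenced from 4 Phf6-deleted and 4 control mice. The authors deposited raw gene counts, and the submitters' processing notes name bcl2fastq, featureCounts and the mm10 build. Aligner, annotation, versions and strand setting: not given in the sources used here. All 24 sample files match the series table value for value. Of 27179 Entrez identifiers, 25275 were named from a RefSeq table and 18 from GENCODE, while 1886 had no name. Coordinates, exon lengths and promoter windows are on GRCm38.p6, the assembly mm10 names, with overlaps taken from GENCODE. Total counts of 9658167 to 27786830 per library set the precision. No libraries of a group agreed within sampling noise (chi-square per degree of freedom 16.1 to 234).

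Each comparison was fitted on all genes with edgeR 4.0.16 (R 4.3.3): TMM scaling, the default filter (a count of 10, and 15 in total), the robust quasi-likelihood test and Benjamini-Hochberg adjustment, called at 0.05. Fold changes are deleted over control or MPP over HSC, with their SE. CPM are the deposited counts on TMM-scaled library sizes, computed for HSC and MPP together and for HPC-1 alone, and log2 CPM has a prior count of 2. Alternatives were DESeq2 1.42.0, its size factors in edgeR, no filter, a replicate block and leaving out each library. For differences between deletion effects and the average over populations, each mouse was left out instead. The comparison averaged over a mouse's populations used limma 3.58.1 on log2 CPM and was added after the values of Pbx3 were seen. The scripts were tested on simulated data.

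The replicate number is the litter in the labels, and populations of 1 number come from the same mouse, so the numbers pair the samples. The main fits held no term for litter or mouse. Over genes, the correlation of deviations between the deleted and control library of a number lay from 0.0033 to 0.064 (HSC), from 0.031 to 0.18 (MPP) and from 0.039 to 0.4 (HPC-1). Between libraries of different numbers it reached 0.074, 0.14 and 0.089. In HSC the litter pairs were thus no more alike than other pairs, and in MPP and HPC-1 the ranges overlapped. Between MPP and HSC of a mouse the correlation lay from 0.015 to 0.41 in deleted and from 0.18 to 0.37 in control mice. Between different mice of a genotype it reached 0.12 in deleted and 0.013 in control mice.

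The members and lists were chosen with earlier results of these data known. Named are the 9 members in every comparison, Phf6, of each list the genes called (up to 6 a comparison), and for members called in MPP against HSC of controls the 3 genes of most similar pattern. Some genes that this rule covers are not reported here.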

Additional observations from a re-analysis of the deposited data

Results flagged for a closer look

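In 3 of the 54 groups of 4 libraries looked at for the members, 1 library lay further from the rest than Dixon's limit at the 95% level allows, which chance gives in about 1 of 20 groups. Hoxa5 had 56.2 CPM in the MPP library of deleted mouse 3, against 22.3 to 26.1 CPM in the other deleted MPP libraries. Hoxb4 had 20.7 CPM in that same library, against 4.02 to 6.51 CPM in the others. Hoxa9 had 45.8 CPM in the HSC library of deleted mouse 4, against 34.95 to 35.6 CPM in the other deleted HSC libraries.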

How the results depend on the processing

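The genes called in HSC of deleted against control mice numbered 1, and 0 with the litter as a replicate block and 14 with DESeq2. In MPP DESeq2 called 96, against 4. In HPC-1 the replicate block gave 60, DESeq2 68 and no filter on low counts 20, against 9. In MPP against HSC DESeq2 gave 843 in deleted mice, against 196, and the replicate block gave 2109 in control mice, against 1205. For the differences between deletion effects DESeq2 called 2 for MPP minus HSC and 11 for HPC-1 minus the others, against 0 each. The cause of these shifts was not tested. Leaving out 1 library at a time gave 0 to 1 calls in HSC, 2 to 22 in MPP, the 22 without deleted mouse 3, and 1 to 11 in HPC-1. In MPP against HSC it gave 54 to 208 in deleted and 832 to 1338 in control mice. Leaving out 1 mouse at a time gave 4 to 26 in the average over populations.

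Other size factors, no filter on low counts, DESeq2 and the replicate block turned no member's sign. The paired fits changed the calls of 2 member results, Pbx3 in HPC-1 and in the average over populations, and no other member's call. Leaving out 1 library turned the sign of Hoxa5 (-0.15 to 0.018) and Mecom (-0.25 to 0.079) in HSC of deleted against control mice. It also did so for Meis1 (-0.16 to 0.025) and Prdm16 (-0.11 to 0.13) in MPP. The same held for Hoxa7 (-0.013 to 0.18) and Hoxb4 (-0.34 to 0.11) in HPC-1. It also did so for Mecom (-0.12 to 0.10) in MPP against HSC of controls. The same held for Prdm16 (-0.069 to 0.21) in MPP against HSC of deleted mice. Leaving out all libraries of 1 mouse turned the sign of Hoxa9 (-0.047 to 0.15), Hoxa10 (-0.028 to 0.29) and Meis1 (-0.019 to 0.14) in the deletion effect of MPP minus HSC. The same held for Hoxa7 (-0.29 to 0.0079), Hoxb4 (-0.99 to 0.0079), Meis1 (-0.24 to 0.032) and Mecom (-0.29 to 0.047) in that of HPC-1 minus the others. It also did so for Hoxa5 (-0.054 to 0.0901), Hoxa9 (-0.083 to 0.063), Hoxa10 (-0.041 to 0.14), Hoxb4 (-0.0899 to 0.28) and Mecom (-0.13 to 0.074) in the average over populations. None of these values was called. With 4 mice a group and totals from 9658167 counts, Hoxb4 in HSC, with SE 0.66, is the member least well measured.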

Other observations

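Hoxb3, the B-cluster neighbour of Hoxb4, was picked out after its values were seen. Hoxb3 had 9.603, 7.63, 141 and 14.8 CPM in MPP of deleted mice of litters 1 to 4, against 4.90, 4.28, 10.2 and 5.91 CPM in control MPP, so its mean in deleted MPP rested on mouse 3, the library in which Hoxb4 and Hoxa5 were also highest. In HSC it had 10.01, 15.8, 14.5 and 11.04 CPM in deleted mice, against 5.82, 8.10, 8.31 and 7.24 CPM in control mice, without overlap. In HPC-1 it had 10.4, 11.1, 17.3 and 15.7 CPM in deleted mice, against 16.4, 12.7, 15.8 and 16.3 CPM in control mice, with overlap. Hoxb3 was not called with edgeR in deleted against control mice of any population.

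Pbx3 stood among few genes in the comparison averaged over a mouse's populations. Of the 13 genes called, the others with a name were Phf6, Slc6a15, Iigp1, Lin28b, Rsad2, H2-Ab1, Sdsl, Ifi44, Ifit1, Nefh and Slc35d3, and Gm4951 is a predicted gene. Iigp1, Rsad2, Ifi44 and Ifit1, known as interferon-induced genes, were higher in deleted mice by 1.31, 1.14, 0.88 and 1.05 on the log2 scale. Lin28b, an RNA-binding protein of fetal stem cells, was higher by 3.84 ± 0.50 (SE, limma adjusted p = 0.0097).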
